A study of Mus musculus with 14 samples.

Results

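The genes described here are 9 members of the Bcl2 family that decide between survival and death of T cells: Bcl2, Bcl2l1, Mcl1, Bcl2l11, Bax, Bak1, Bid, Bbc3 and Pmaip1. They were chosen by symbol, and every probe set annotated to 1 of these symbols alone was taken, which gave 27 probe sets of 45101 on the array, or 8 genes of 18193. Mcl1 had 6 probe sets, Bcl2 and Bcl2l11 had 5 each, Bcl2l1 had 4, Bid had 3, Bak1 had 2, and Bbc3 and Pmaip1 had 1 each. Bax had none in the annotation used and was not analysed here. Of the 27 probe sets, 19 had a mean of at least 6 on the log2 scale over all arrays. For each gene the brightest of its probe sets is described first.

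RNA came from murine Th1 rep cells, which are T helper 1 lymphocytes that had been activated repeatedly in culture. Naive CD4+CD62Lhi cells of OT-II mice, 6 to 10 weeks old and with a T cell receptor specific for an ovalbumin peptide, had been polarised with IL-12 and a blocking antibody to IL-4, with irradiated antigen-presenting cells and, later on, IL-2. After 4 rounds of stimulation all cells received an antagomir at 1 µM, either Antagomir-31, which inhibits miR-31, or the unspecific control Antagomir-SCR, and all were activated again on αCD3 and αCD28 with IL-12, αIL-4 and IL-2 present. There were 14 arrays, and for either antagomir 2 came from 36 h, 2 from 48 h and 3 from 72 h. The question of the design is whether inhibition of miR-31 changed gene expression, and the 3 times add a course after reactivation. Whether the replicates were cultured apart is stated neither in the labels nor in the methods, and p-values therefore cover only the spread among these arrays, part or all of which may be technical. The cells are a culture derived from 1 transgenic strain, and no untreated or freshly isolated cells were on these arrays.

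Proteins of this family act at the outer membrane of mitochondria. The anti-death members Bcl2, Bcl2l1 (Bcl-xL) and Mcl1 hold back the pore-forming members Bax and Bak1, whose pores release cytochrome c and start the caspases. BH3-only members, here Bcl2l11 (Bim), Bid, Bbc3 (PUMA) and Pmaip1 (NOXA), counter the anti-death members, and in T cells Bim is known for the removal of lymphocytes after an immune response, while Bbc3 and Pmaip1 are known targets of p53.

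The treatment was aimed at the mature miRNA mmu-miR-31-5p, and its sequence is shown because it is what the antagomir binds. RefSeq places it on GRCm38.p6 at chr4:88910614-88910635 on the minus strand. It has 22 bases, and the capitals mark the seed, bases 2 to 8, which pairs with target transcripts.
mmu-miR-31-5p: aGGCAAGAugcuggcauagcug

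Among the member promoters, those of Bcl2l11 and Bbc3 are shown because they hold the core motif of FOXO factors, GTAAACA or its reverse complement, and because both genes differed between the times. FOXO factors are known activators of Bim and PUMA in lymphocytes deprived of growth factor. Each sequence runs from 250 bases before to 50 bases after a RefSeq start site on GRCm38.p6, and the capitals mark the match. The Bcl2l11 window lies at chr2:128125788-128126087 on the plus strand, and the match begins 227 bases before the start site. The Bbc3 window lies at chr7:16310011-16310310, also on the plus strand, with the match 167 bases before the start site.
Bcl2l11: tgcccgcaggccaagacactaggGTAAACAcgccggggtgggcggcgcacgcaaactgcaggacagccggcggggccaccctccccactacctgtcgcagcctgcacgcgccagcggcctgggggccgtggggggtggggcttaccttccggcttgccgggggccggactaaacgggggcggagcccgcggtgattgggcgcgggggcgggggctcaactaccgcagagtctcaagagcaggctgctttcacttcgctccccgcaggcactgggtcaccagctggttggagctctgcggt
Bbc3: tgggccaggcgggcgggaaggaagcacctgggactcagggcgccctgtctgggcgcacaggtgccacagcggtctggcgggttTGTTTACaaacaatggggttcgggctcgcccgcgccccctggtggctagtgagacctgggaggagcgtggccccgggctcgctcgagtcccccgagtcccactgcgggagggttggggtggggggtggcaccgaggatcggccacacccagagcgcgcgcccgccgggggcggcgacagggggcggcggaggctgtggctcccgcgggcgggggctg

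The motif was found, on either strand, in 2 of 13 promoters searched for 8 of the member genes. Bax was among these genes, and Pmaip1 was not searched. The other searched promoters of Bcl2l11 and Bbc3 did not hold the motif. Among all mouse promoters of the same length it was found in 1199 of 32851 (3.65%). The STAT motif TTCNNNGAA was found in 0 of the 13 and in 8.3% of all promoters, and the E-box CACGTG in 2 of the 13, 1 each of Bax and Bbc3, and in 7.15% of all. These matches are descriptions of the letters and were not tested for binding.

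The deposited intensities were normalised by the authors, and the arrays of a time share nearly the same distribution: at 36 h the median intensity lay between 23.43 and 23.79, at 48 h between 21.76 and 22.08, and at 72 h between 27.92 and 28.42. Treatments were therefore compared on the deposited values, within a time. For differences between times all 14 arrays were first put on 1 distribution by quantile normalisation, and these values are called rescaled. A batch of the time, in culture, hybridisation or normalisation, cannot be told apart from the time itself. As a sign of RNA quality, the actin controls gave a 3'/5' log2 ratio between 0.324 and 0.427 at 36 h, between 0.37 and 0.41 at 48 h, and between 0.211 and 0.267 at 72 h. The Gapdh controls gave one between -0.046 and -0.028 at 36 h, between -0.024 and -0.012 at 48 h, and between -0.005 and 0.088 at 72 h. The part of either ratio in the differences between times was not tested.

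Defining markers of T cells were bright, with 6 of 6 measured markers at a mean log2 of at least 6 (Cd3d at a mean rescaled intensity of 5400, Cd4 at 203). Of the Th1 markers 5 of 6 passed this level, with Ifng at 12200 and Tbx21 at 1360, while Cxcr3 at 56.5 did not. Their summed rescaled intensity was 19585 to 19885 over the arrays at 36 and 48 h and 10282 to 10932 at 72 h. Most of this sum was Ifng, which stood at 16500 with an SD of 0 at 36 and 48 h, the top of the rescaled range, and at 7850 ± 222 (SD, n = 6) at 72 h. From 36 h to 72 h 2 of the 6 Th1 markers rose on the log2 scale (Tbx21 by 0.38 and Il12rb2 by 0.32) and 2 fell (Stat4 at -2.26 and Ifng at -1.07), with a median of -0.02 beside -0.006 over all genes. The part of these changes in the differences described here was not tested. Defining markers of B cells (3 measured), CD8 T cells (2), NK cells (1), dendritic cells (4) and neutrophils (3) all stayed under that level. Of 5 markers of macrophages and monocytes only Csf1r passed it, at 70.2, and their summed intensity was 192 to 225 at 36 and 48 h and 170 to 185 at 72 h.

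The family changed with time in opposite directions. From 36 h to 72 h, Bcl2l11 fell 4.24-fold, Bid rose 2.68-fold, Pmaip1 2.17-fold, Bbc3 1.46-fold and Bcl2 1.43-fold, while Mcl1 and Bak1 did not pass the test. On the log2 scale these differences were -2.08, 1.42, 1.12, 0.55 and 0.52. On the deposited values they were -1.76, 1.75, 1.32, 0.89 and 0.70, so the directions stayed but the sizes depend on the scaling. For all 4 BH3-only genes most of the change lay between 48 h and 72 h, but Bcl2l11, Bid and Bcl2 had already moved at 48 h. Of the 27 probe sets, 22 passed an adjusted p of 0.05 in limma between 36 h and 72 h, 15 higher and 7 lower. Of all 34945 probe sets 68.4% passed, 34.9% higher and 33.5% lower. From 36 h to 48 h 11 passed, 5 higher and 6 lower, beside 43% of all probe sets (21.5% in each direction). From 48 h to 72 h 19 passed, 13 higher and 6 lower, beside 66.7% of all (34.9% higher and 31.8% lower). With shares as large as these a call on its own says little about the members, and the sizes are what sets some of them apart. On the rescaled values, only 0.515% of all probe sets had a log2 difference at or below that of Bcl2l11, and 0.867% one above that of Bid. In a bulk sample, fewer cells of a type and less RNA per cell cannot be told apart.

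**Figure D1:**
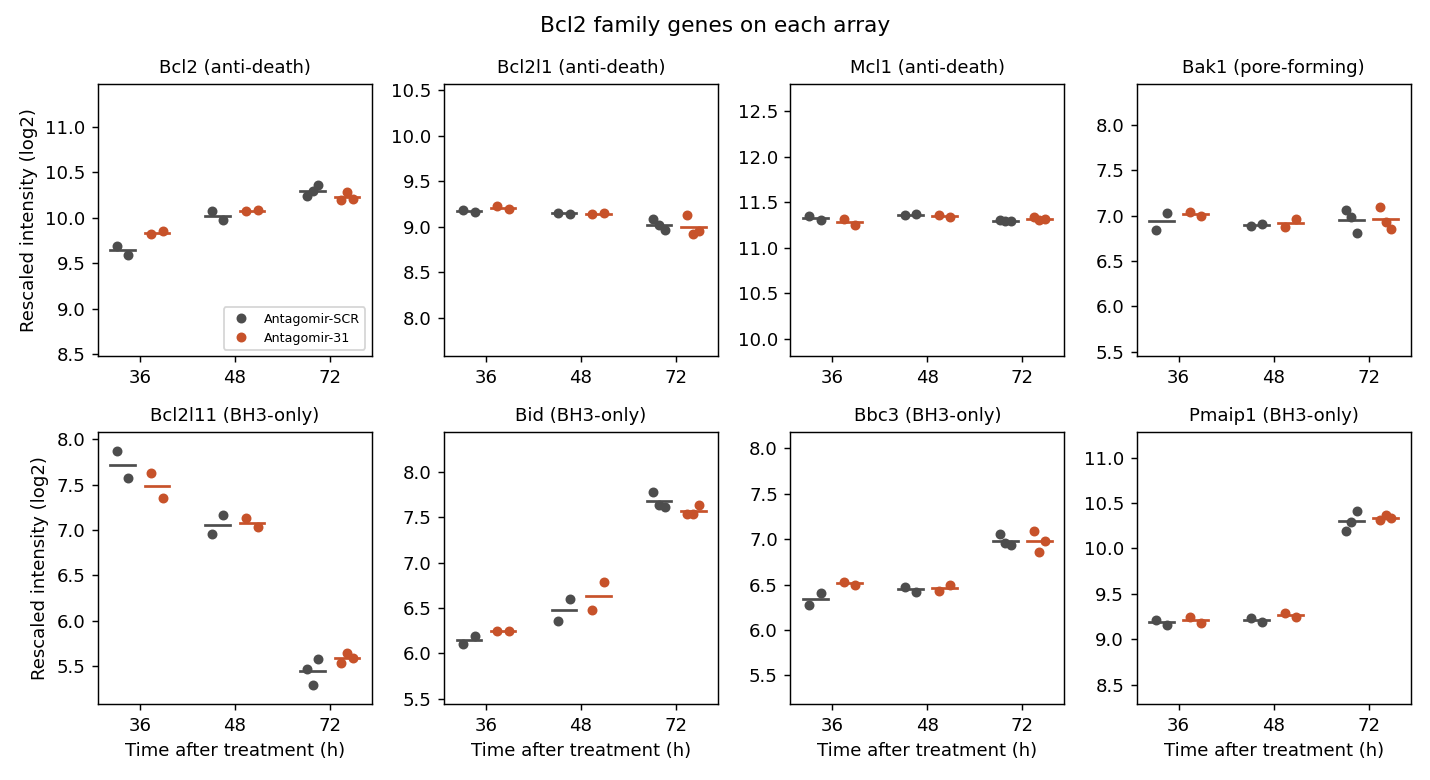
Rescaled intensity (log2, vertical axis, a span of 3 in every panel) of the brightest probe set of each of the 8 measured genes on the 14 arrays, by time after treatment (h, horizontal axis). Points are arrays, bars are group means, and colour gives the treatment. Bcl2l11 lies between 39.2 and 50.0 on the linear scale at 72 h and between 163 and 234 at 36 h, Bid and Pmaip1 go up, and the treatments lie close together.

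Bcl2l11 (chr2:128126038-128162547) encodes Bim, the BH3-only protein that binds all the anti-death members. Its rescaled intensity at 36 h was 197 and 163 with Antagomir-31 and 234 and 190 with Antagomir-SCR. At 48 h it was 140 and 131 with Antagomir-31 and 124 and 143 with Antagomir-SCR. At 72 h it was 46.3, 50.0 and 48.1 with Antagomir-31 and 44.4, 39.2 and 47.7 with Antagomir-SCR. Every array at 36 h lay above every array at 48 h, and these above every array at 72 h, whatever the treatment. The means were 196 ± 29 (SD, n = 4), 134.4 ± 8.59 (n = 4) and 45.96 ± 3.78 (n = 6). The log2 difference was -0.53 (SE 0.087, limma adjusted p = 0.00036) from 36 h to 48 h and -1.55 (SE 0.079, adjusted p = 2.1e-09) from 48 h to 72 h. All 5 Bcl2l11 probe sets fell from 36 h to 72 h, the other 4 by 0.89 to 1.79 on the log2 scale, and all 5 also fell in each of the intervals. One of the others, 1435448_at, had a mean log2 of 6.00 and fell by 1.48, and the remaining 3 were dimmer. Within each treatment the fall of the brightest probe set from 36 h to 72 h was also large, at -1.90 (SE 0.112) with Antagomir-31 and -2.27 (SE 0.112) with Antagomir-SCR, both passing the test. The difference between these falls, tested on the deposited values, was 0.36 (95% interval -0.00 to 0.72, limma adjusted p = 0.619) and did not pass.

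Bid (chr6:120893119-120917062) is the BH3-only protein that caspase 8 cleaves to join death receptors to mitochondria. Its rescaled intensity ranged from 68.6 to 76.2 over the 4 arrays of 36 h (median 74.6), from 81.8 to 110 over the 4 of 48 h (median 93.0) and from 185 to 220 over the 6 of 72 h (median 197). The ranges of the 3 times did not overlap. At 48 h the values were 88.8 and 110 for Antagomir-31 and 81.8 and 97.2 for Antagomir-SCR. The SD at 48 h was 12, beside 3.51 at 36 h and 12.6 at 72 h. The log2 difference was 0.35 (SE 0.075, adjusted p = 0.0023) from 36 h to 48 h and 1.07 (SE 0.068, adjusted p = 1.8e-08) from 48 h to 72 h. The 2 dimmer probe sets also rose between 36 h and 72 h, by 1.17 and 0.99 on the log2 scale.

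Pmaip1 encodes NOXA, which mainly counters Mcl1. Its rescaled intensity was 605, 582, 593 and 573 at 36 h and 626, 605, 604 and 583 at 48 h, each time with both Antagomir-31 arrays first. At 72 h it was 1276, 1321 and 1287 with Antagomir-31 and 1171, 1257 and 1359 with Antagomir-SCR. The arrays of 36 h and 48 h overlapped, and all arrays of 72 h lay clearly above them. The difference between 36 h and 48 h was 0.04 on the log2 scale (95% interval -0.072 to 0.150, adjusted p = 0.56), and that between 48 h and 72 h was 1.08 (SE 0.047, adjusted p = 4.5e-10).

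Bbc3 (chr7:16308398-16318334) encodes PUMA, which like Bim binds all the anti-death members. Its rescaled intensity was 92.4 and 90.2 for Antagomir-31 and 77.6 and 85.0 for Antagomir-SCR at 36 h, and 86.1 and 90.3 against 89.0 and 85.4 at 48 h. At 72 h the values were 136, 116 and 126 with Antagomir-31 and 133, 124 and 122 with Antagomir-SCR, above all earlier arrays. The difference was 0.03 on the log2 scale (95% interval -0.100 to 0.152, adjusted p = 0.74) from 36 h to 48 h and 0.52 (SE 0.053, adjusted p = 1.7e-06) from 48 h to 72 h. Thus 3 of 4 BH3-only genes rose from 36 h to 72 h and 1 fell, beside 34.3% of all genes higher and 35.6% lower. Their median difference in that interval was 0.83 on the log2 scale, against -0.006 over all genes. The largest single difference of the 4 was the fall of Bcl2l11, at -2.08, so the median does not describe the group as a whole.

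Bcl2 (chr1:106538176-106714290) was the anti-death gene that rose. Its rescaled intensity was 903 and 926 with Antagomir-31 and 828 and 773 with Antagomir-SCR at 36 h, then 1075 and 1087 against 1074 and 1005 at 48 h. At 72 h it was 1168, 1243 and 1177 with Antagomir-31 and 1213, 1252 and 1312 with Antagomir-SCR. The 3 times did not overlap. The rise was 0.31 (SE 0.048, adjusted p = 0.00026) on the log2 scale from 36 h to 48 h, and 0.52 (SE 0.044, adjusted p = 2.4e-07) from 36 h to 72 h. All 5 Bcl2 probe sets rose between 36 h and 72 h, by 0.34 to 0.81, and all had a mean log2 of at least 6. Between 36 h and 48 h only the brightest of them passed the test as higher, while 1440770_at (0.19), 1422938_at (0.09) and 1437122_at (0.03) did not pass. In that interval 1443837_x_at fell by 0.21 (adjusted p = 0.041), so its rise of 0.82 came from 48 h to 72 h.

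**Figure D2:**
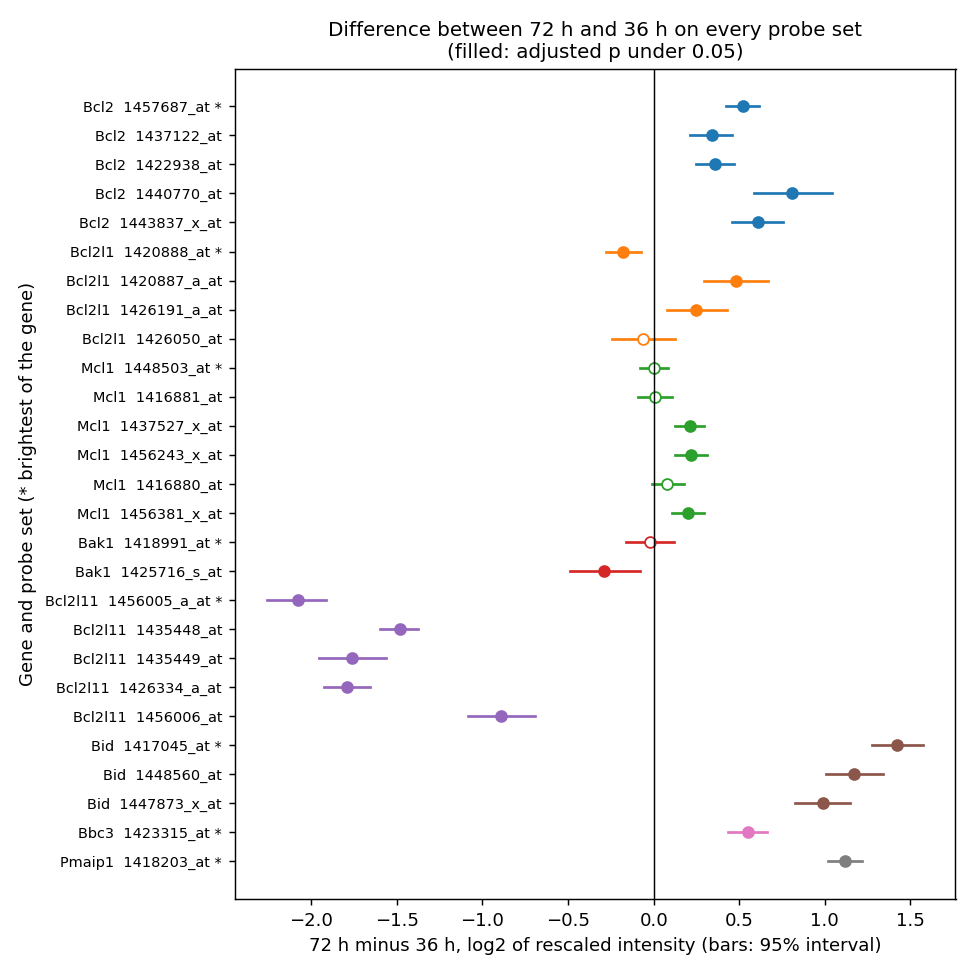
Log2 difference between 72 h and 36 h in rescaled intensity (horizontal axis) for each of the 27 probe sets, grouped by gene (vertical axis), with 95% intervals; filled points had an adjusted p under 0.05. All 5 Bcl2l11 probe sets lie left of 0 and all Bcl2 and Bid probe sets right of it, whereas those of Bcl2l1 lie on both sides, and the brightest one of Bcl2l1 lies at 0.05 instead of -0.18 on the deposited values.

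Mcl1 (chr3:95656944-95663179), whose short-lived protein T cells need at all stages, had the brightest probe set of the family and the narrowest range. Its rescaled intensity ranged from 2428 to 2607 on the arrays of 36 h, from 2579 to 2640 on those of 48 h and from 2506 to 2593 on those of 72 h, and the times overlapped. Between 36 h and 72 h the difference was 0.00 on the log2 scale (95% interval -0.077 to 0.084, adjusted p = 0.94). This interval holds changes of less than 0.1 either way, but on the deposited values, whose median over all probe sets was itself 0.219 higher at 72 h, the difference was 0.14 (adjusted p = 0.003), and with each array centred on its median it was -0.14 (adjusted p = 0.0041). The direction thus turned with the scaling. Of the other 5 probe sets, 3 rose by 0.20 to 0.22 and the other two gave 0.01 and 0.08 and did not pass. The 3 that rose have IDs ending in _x_at, which marks probes that can also bind other transcripts.

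Bcl2l1 (chr2:152758732-152833803) gave different answers on different probe sets. The brightest one ranged from 571 to 598 on the arrays of 36 h, from 562 to 569 on those of 48 h and from 486 to 559 on those of 72 h. It fell by 0.18 on the log2 scale between 36 h and 72 h (SE 0.047, adjusted p = 0.0046), but on the deposited values the difference was 0.05 (adjusted p = 0.39). The next, 1420887_a_at, went the other way, from 63.88 ± 4.69 (SD, n = 4) at 36 h to 89.48 ± 9.36 (n = 6) at 72 h, a rise of 0.48 (SE 0.086, adjusted p = 0.00025). Another, 1426191_a_at, under the level of 6, rose by 0.25, and 1426050_at, the dimmest of the 4, gave -0.06 (adjusted p = 0.56). Probe sets of a gene can read different transcript ends or splice forms, so no direction is given here for Bcl2l1 as a gene.

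Bak1 (chr17:27019812-27028627), the only pore-forming member with a probe set, ranged from 115 to 132 among the arrays of 36 h, from 117 to 125 among those of 48 h and from 112 to 137 among those of 72 h. These ranges overlapped, and the difference between 36 h and 72 h was -0.02 on the log2 scale (95% interval -0.160 to 0.119, adjusted p = 0.79). On the deposited values it was 0.31 (adjusted p = 8e-04). Its other probe set, 1425716_s_at, dim at a mean log2 of 5.26, fell by 0.29 (adjusted p = 0.016).

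By the range of the 6 group means on the log2 scale, Bcl2l11 varied most, with 2.27, before Bid with 1.53, Pmaip1 with 1.15, Bcl2 with 0.65 and Bbc3 with 0.63. Bcl2l1 at 0.21, Bak1 at 0.13 and Mcl1 at 0.08 varied least. The levels of different genes cannot be ranked in this way, since a probe set's brightness depends on its probes.

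Antagomir-31 changed none of the 27 probe sets at an adjusted p under 0.05. In limma 0 were called at 36 h, 48 h and 72 h, on the average of the times, and for the difference of the treatment effect between any pair of times. Over all probe sets the share called was 0% at 36 h and at 48 h, 0.0372% (13 probe sets) at 72 h, and 0% for the average and for each difference between times. At an unadjusted p under 0.05, 1 member probe set passed at 36 h, 0 at 48 h, 3 at 72 h and 0 on the average, beside 5.3%, 6.25%, 11.3% and 7.37% of all probe sets. For the differences of the effect between times, 1 passed for 48 h against 36 h, 4 for 72 h against 36 h and 3 for 72 h against 48 h, beside 4.84%, 8.1% and 7.54% of all. Arrays of the treatments did not overlap for 10 of the 27 at 36 h, 10 at 48 h and 6 at 72 h. Among all probe sets the share was 29.6%, 31.9% and 17.9%.

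How large an effect remains possible is given by the intervals, here on the brightest probe set of each gene. On the average of the times the 95% interval of Antagomir-31 minus Antagomir-SCR was -0.02 to 0.14 on the log2 scale for Bcl2, -0.09 to 0.08 for Bcl2l1 and -0.07 to 0.06 for Mcl1. It was -0.18 to 0.13 for Bcl2l11, -0.09 to 0.17 for Bid, -0.05 to 0.15 for Bbc3, -0.05 to 0.12 for Pmaip1 and -0.09 to 0.15 for Bak1. The widest of them, that of Bcl2l11, allows a level between 0.88 and 1.09 times the control on that probe set. Some dimmer probe sets allowed more, as 1440770_at of Bcl2 (0.95 to 1.25 times) and 1435449_at of Bcl2l11 (0.82 to 1.03 times). At a single time the intervals were wider. Among the brightest probe sets, Bcl2l11 at 36 h had the widest lower bound, at -0.51 to 0.05.

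**Figure D3:**
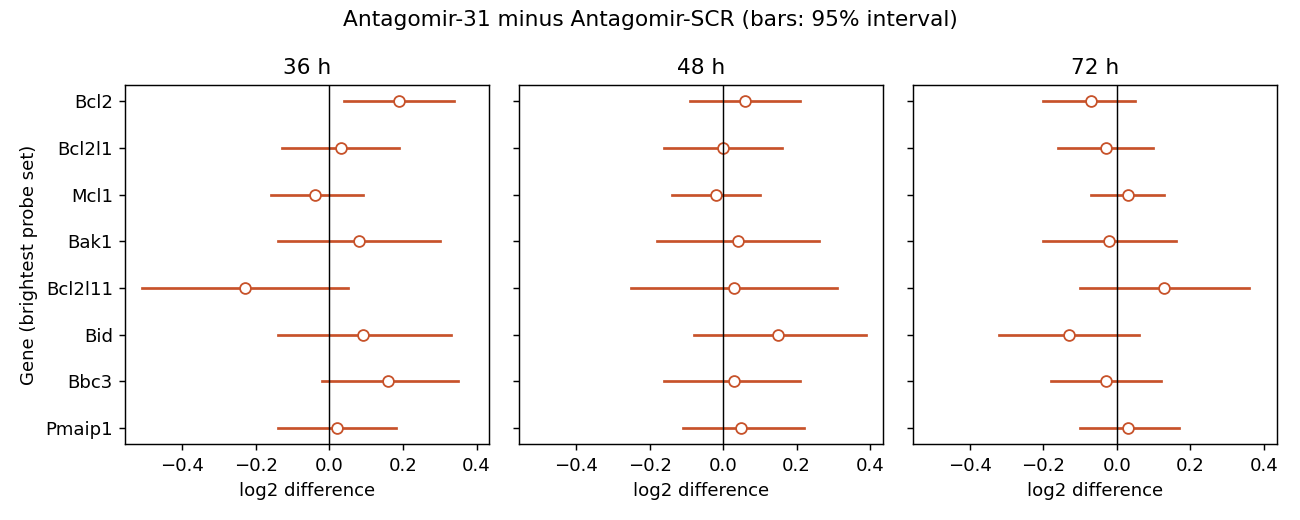
Antagomir-31 minus Antagomir-SCR on the log2 scale of the deposited intensities (horizontal axes) for the brightest probe set of each gene (vertical axis) at 36 h, 48 h and 72 h, with 95% intervals from limma. Open points mark that none had an adjusted p under 0.05; at 36 h the interval of Bcl2, 0.04 to 0.34, does not include 0.

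The genes with the smallest p on the average were Bcl2, Bbc3 and Pmaip1. For Bcl2 the average difference was 0.06 (SE 0.037, adjusted p = 0.7746), for Bbc3 0.05 (SE 0.046, adjusted p = 0.8496) and for Pmaip1 0.04 (SE 0.041, adjusted p = 0.889). The deposited intensity of Bcl2 at 36 h was 866.7 and 887.8 with Antagomir-31 and 794.8 and 743.2 with Antagomir-SCR, so the groups did not overlap. This was a difference of 0.19 (SE 0.069, unadjusted p = 0.01594 and adjusted p = 0.7841 in limma). At 48 h the values were 985.0 and 996.3 against 979.8 and 922.8, again without overlap. At 72 h they were 1259.2, 1355.2 and 1276.6 against 1315.4, 1354.1 and 1429.3, with overlap and a difference of -0.07 (95% interval -0.20 to 0.05).

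On 3 other Bcl2 probe sets the signs of the difference followed the same order, above the control at 36 h and 48 h and below it at 72 h. On 1443837_x_at the differences were 0.12, 0.13 and -0.08 on the log2 scale, and none passed. The remaining Bcl2 probe set, 1440770_at, gave 0.04, 0.32 and 0.02, so its sign did not turn, and none passed either. On 1437122_at the deposited intensity at 72 h was 302.8, 344.2 and 344.5 with Antagomir-31 and 353.2, 387.3 and 408.5 with Antagomir-SCR, a difference of -0.21 (SE 0.069, unadjusted p = 0.008976 and adjusted p = 0.2624 in limma). On 1422938_at it was 264.5, 256.1 and 276.5 against 287.9, 301.8 and 309.5, a difference of -0.17 (SE 0.066, unadjusted p = 0.02025, adjusted p = 0.3336). On 1437122_at and 1422938_at the groups at 72 h did not overlap, and the control was higher. At 48 h the order was the opposite on both, with 238.2 and 237.5 against 218.9 and 227.7 on 1437122_at and 196.1 and 193.4 against 171.0 and 176.3 on 1422938_at. The treatment effect at 72 h minus that at 36 h was -0.27 on the brightest probe set (unadjusted p = 0.01052, adjusted p = 0.4946), -0.30 on 1437122_at (adjusted p = 0.5277) and -0.25 on 1422938_at (adjusted p = 0.5742). None passed over all probe sets, and these probe sets read the same RNA samples. The upper quartile of the arrays at 72 h lay between 129.13 and 130.01 with Antagomir-31, and between 131.42 and 133.19 in the control. With each array centred on its median the differences at 72 h were still -0.21 and -0.17, and after quantile normalisation they were -0.20 and -0.16.

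**Figure D4:**
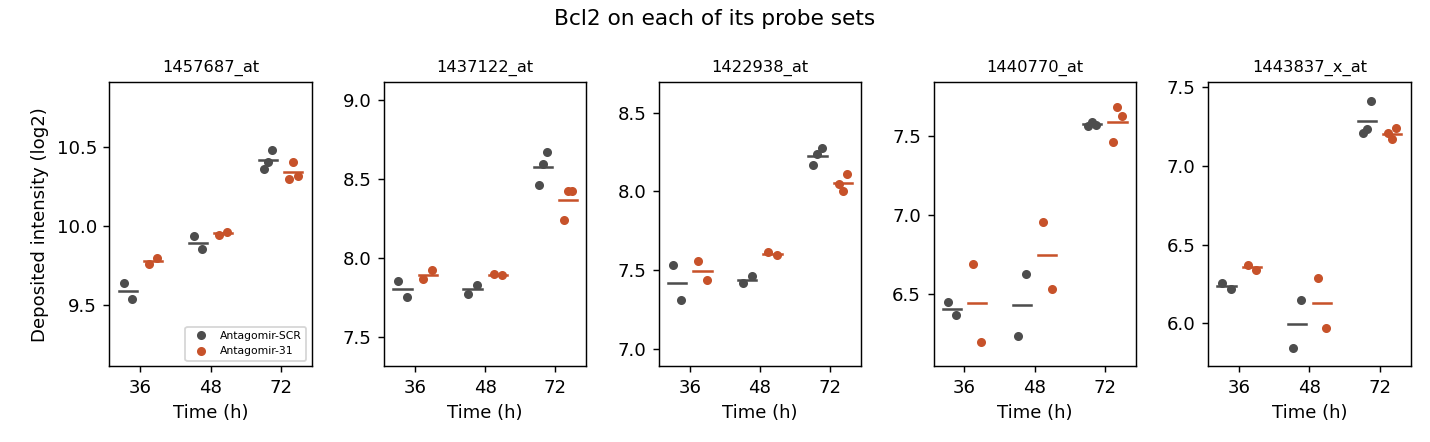
Deposited intensity (log2, vertical axes, a span of 1.8 in every panel) of the 5 Bcl2 probe sets, brightest first, on each array by time (h, horizontal axes) and treatment; bars are group means. On 1437122_at and 1422938_at the Antagomir-31 arrays at 72 h lie below the Antagomir-SCR arrays, by 0.21 and 0.17 on the log2 scale, while at 48 h they lie above them; levels at different times are on separately normalised scales.

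The remaining member probe set with an unadjusted p under 0.05 at 72 h was 1456381_x_at of Mcl1, at 515.0, 518.3 and 502.9 with Antagomir-31 and 444.7, 465.8 and 450.1 with Antagomir-SCR. The groups did not overlap, and the difference was 0.18 (SE 0.056, unadjusted p = 0.007825, adjusted p = 0.2511 in limma). The brightest Mcl1 probe set at 72 h was 2768.1, 2722.4 and 2725.3 against 2686.8, 2685.2 and 2687.9, a difference of 0.03 (95% interval -0.07 to 0.13).

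Genes around the family were described on the brightest probe set of each gene from lists of the pathway. With Antagomir-31, 0 genes of any of these lists passed the test at any time. Of all genes 0% passed at 36 h and at 48 h and 0.0495% at 72 h, so this count says little about the lists. Between 36 h and 72 h, 69.9% of all 18193 genes passed, 34.3% higher and 35.6% lower, and the counts of the lists are to be read against these shares.

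Of 12 other Bcl2 family genes with a probe set (16 listed), 5 rose and 4 fell. Bcl2l2, the anti-death protein Bcl-w, fell from 406 ± 15.8 (SD, n = 4) to 199 ± 14.4 (n = 6) in rescaled intensity, a difference of -1.03 on the log2 scale. The BH3-only gene Bad rose from 92.1 ± 2.78 to 163 ± 5.83 (0.83), and Bnip3, a protein of mitochondrial turnover induced by hypoxia, from 1370 ± 75.9 to 2350 ± 73.9 (0.78). Bcl2l15 rose by 0.82 at an intensity of only 15 to 26.4.

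Of 16 genes of the apoptosome, the caspases and their inhibitors, 7 rose and 6 fell. Casp6, an executioner caspase, rose most, from 177 ± 8.15 to 660 ± 48.7 (1.90). Vdac1, a channel of the outer mitochondrial membrane, rose by 0.78, and Birc5 (survivin), an inhibitor of apoptosis that also serves in mitosis, by 0.63. Cycs, which encodes the cytochrome c that the pores release, fell from 7300 ± 238 to 5000 ± 318 (-0.55).

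Of 10 genes of the death receptors and their signalling (11 listed), 5 rose and 4 fell. The receptor Fas rose from 111 ± 4.64 to 254 ± 23.1 (1.18), and Casp8, the protease that acts on Bid, from 1340 ± 40 to 2060 ± 75.3 (0.62). The ligand Fasl fell from 1470 ± 40.5 to 623 ± 31.9 (-1.24), and Cflar (c-FLIP), which blocks caspase 8, from 470 ± 15.7 to 191 ± 7.9 (-1.30). Of the other genes in this list, Fadd (0.38), Traf2 (0.48) and the dim Tnfrsf10b (0.68) rose. The adaptor Tradd (-0.50) and the receptor Tnfrsf1a (-0.25) fell, and the ligand Tnfsf10 (0.06) did not pass.

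Of 13 p53 targets outside the members (14 genes listed with Trp53), 10 rose and 2 fell, with a median difference of 0.89 on the log2 scale against -0.006 over all genes. Phlda3, which restrains Akt, rose from 187 ± 9.06 to 696 ± 51.2 (1.90), and Trp53inp1, which takes part in cell death and autophagy, from 496 ± 58.8 to 1630 ± 71.3 (1.72). Zmat3, an RNA-binding protein, rose by 1.59 and Ei24 by 1.16. The rise of Cdkn1a was only 0.21. Perp (-0.54) and the dim Gadd45a (-0.14) fell, and Sesn2 (-0.40) did not pass. Between 36 h and 48 h the list had 3 genes higher and 5 lower, beside 43.1% of all genes (22% higher and 21.1% lower). Bbc3 and Pmaip1, not counted in this list, did not pass in that interval, unlike most genes of the list. Trp53 itself had no probe set in the annotation used.

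**Figure D5:**
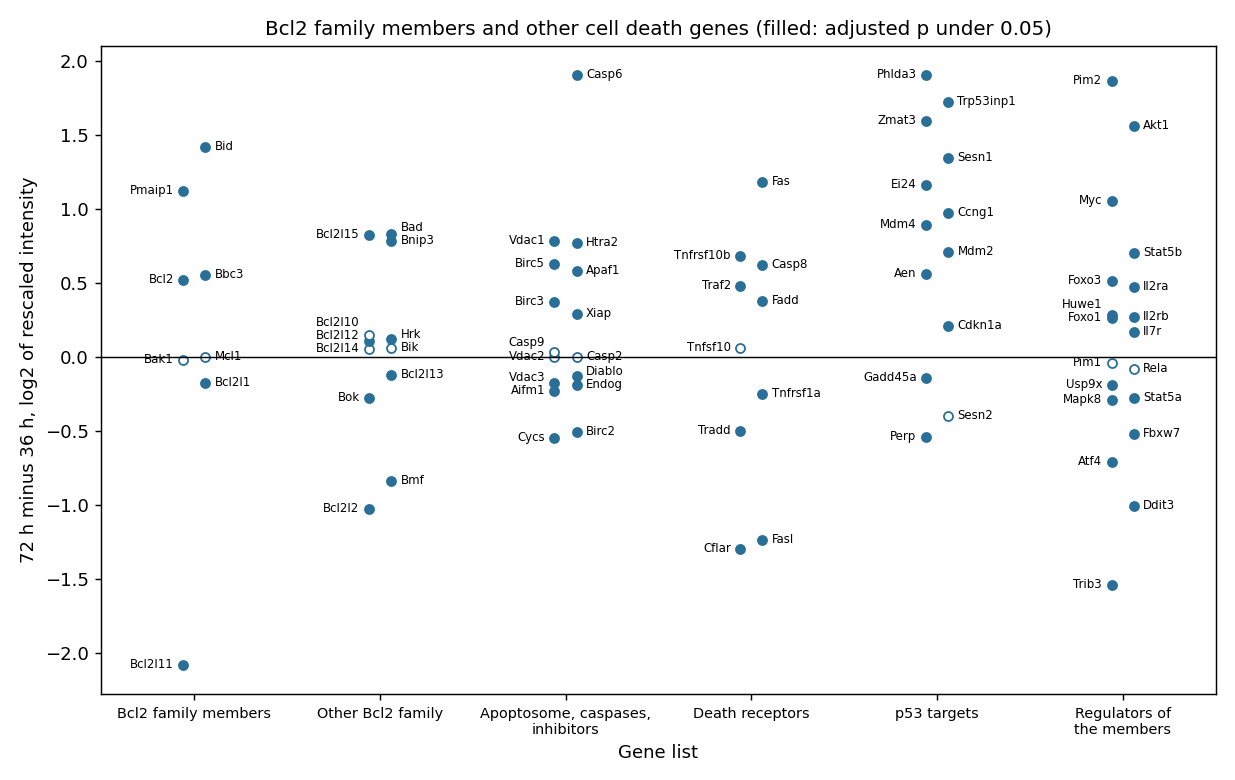
Log2 difference between 72 h and 36 h in rescaled intensity (vertical axis) for each gene of the family and of the other lists (horizontal axis), on its brightest probe set; filled points had an adjusted p under 0.05. Of the 13 p53 targets 10 passed above 0 and 2 below it, and the other lists too have filled points on both sides; on the deposited values Bcl2l1 lies at 0.05 and Bak1 at 0.31.

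Of 19 regulators of the members (21 listed), 10 rose and 7 fell. Pim2, a survival kinase that phosphorylates Bad, rose from 111 ± 4.29 to 405 ± 41.8 (1.86), and Akt1, a kinase that acts on Bad and on FOXO factors, from 330 ± 8.3 to 975 ± 78 (1.56). Myc rose from 1040 ± 54.1 to 2150 ± 47.6 (1.05). Trib3, a pseudokinase of the stress response, fell from 302 ± 27.6 to 104 ± 7.81 (-1.54). Other members of this list were picked after their values were seen, for their known link to Bim: the factors Foxo1 and Foxo3 rose by 0.26 and 0.51, while the stress factors Atf4 and Ddit3 (CHOP) fell by 0.71 and 1.01. The 2 genes whose promoters above hold the FOXO motif went opposite ways in the same interval, as Bcl2l11 fell and Bbc3 rose by 0.55. Pmaip1 rose too, by 1.12. No relation between any of these genes was tested.

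On the deposited values the splits of these lists moved up with the whole scale, to 9 higher and 2 lower of the other Bcl2 family genes, 12 and 2 of the apoptosome genes, 6 and 3 of the death receptor genes, 10 and 1 of the p53 targets and 12 and 4 of the regulators. The shares of all genes called on the deposited values are not given here. The median over all probe sets was itself 0.219 higher at 72 h on that scale, so these splits say little about the lists. The 4 genes with the smallest p in each list kept their direction and passed the test under every alternative in which they were tested.

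The genes most like the members that changed most were found by Pearson's r over the 14 rescaled arrays, among 13212 probe sets with a mean log2 of at least 6. Bcl2l11 was followed most closely by Septin2 (r = 0.9961), Dnajc3 (r = 0.9943) and Rad54l2 (r = 0.9920). For Bid they were Ermn (r = 0.9951), H2-DMa (r = 0.9921) and Batf3 (r = 0.9914), and for Pmaip1 Furin (r = 0.9975), Cmtm7 (r = 0.9970) and Dtx3l (r = 0.9969). The arrays of a time lie close together, so these values mostly describe the step between the times, and the arrays share their normalisation.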

How the data were processed

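Total RNA of Th1 rep cells was hybridised to Affymetrix mouse GeneChips. Per the labels, GCOS, RMA and affy (versions not given in the sources used here) produced the deposited intensities, which the authors left on a linear scale, for 45101 probe sets. Of these, 64 were controls, 34945 had 1 gene symbol in the platform annotation and were used, 932 had several and 9160 had none. The number of arrays, 2 or 3 in a group, limits the precision.

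Log2 of the deposited intensity was fitted with limma 3.58.1 in R 4.3.3 (tables and figures with Python 3.11.15) over the 6 groups of treatment and time, with no filter, and p-values were adjusted by Benjamini-Hochberg over all 34945 probe sets of a contrast; the threshold was 0.05. Contrasts were the effect of Antagomir-31 over Antagomir-SCR within a time, its average and its differences between times. Differences between times, averaged over the treatments, were fitted after quantile normalisation of all 14 arrays. A gene was described by its probe set with the highest mean log2 intensity, and lists by counts and medians without a set test. The members of the lists were chosen, and the rule for named genes (all members, and the 4 genes with the smallest p of each other list) was written, with earlier results of these data known. The fit was also run on simulated data with independent noise and few changed probe sets. Far more probe sets differed between the times here, so that run cannot show how the comparison between times performs. Alternatives were median centring, other normalization, a mean log2 of at least 6, 1 value per gene, no _x_at or _s_at probe sets, a trend in the prior variance, the replicate block, only the arrays compared, each treatment alone and leaving out each array.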

Additional observations from a re-analysis of the deposited data

How the results depend on the processing

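For the treatment and its differences between times, the count of member probe sets called was 0 under all alternatives. Between times, the count was 11 for 36 h to 48 h, 19 for 48 h to 72 h and 22 for 36 h to 72 h, and without 1 array it ran from 8 to 12, 16 to 19 and 20 to 22. From 36 h to 48 h it was 7 of the 19 probe sets that reach a mean log2 of 6, and 6 within Antagomir-31, where fewer arrays carry the comparison. With the highest probe set per gene, 3, 6 and 6 of the 8 genes were called in the 3 intervals, since fewer features were tested. The shares of all features called under the alternatives are not given here. The counts therefore describe only how steady the calls were, and do not set the members apart from other genes. Among the calls between times on the brightest probe sets that passed with all arrays, those of Bcl2l1 and Bcl2 changed. Mcl1 and Bak1 did not pass there, but did on the deposited values, Mcl1 at 0.14 (adjusted p = 0.003) from 36 h to 72 h and 0.17 (adjusted p = 0.00087) from 48 h to 72 h, and Bak1 at 0.31 (adjusted p = 8e-04) and 0.42 (adjusted p = 5.2e-05). With median centring Mcl1 passed in the opposite direction, at -0.14 (adjusted p = 0.0041) and -0.19 (adjusted p = 0.00055). On the deposited values the brightest Bcl2l1 probe set reversed, to 0.14 (limma adjusted p = 0.013) from 48 h to 72 h and 0.05 (adjusted p = 0.39) from 36 h to 72 h. Its fall from 48 h to 72 h, -0.13 with all arrays, was -0.17 to -0.12 without 1 array and missed the threshold without any of 6 arrays: Antagomir-31 48 h replicate 2, Antagomir-SCR 48 h replicates 1 and 2, Antagomir-31 72 h replicates 3 and 4 and Antagomir-SCR 72 h replicate 4. It also missed it within either treatment (-0.14 and -0.13), as did the fall from 36 h to 72 h within Antagomir-SCR (-0.15, adjusted p = 0.071). The rise of Bcl2 from 48 h to 72 h was 0.10 with median centring (adjusted p = 0.053) and 0.15 within Antagomir-31 (adjusted p = 0.063). The causes were not tested. The directions and calls of Bcl2l11, Bid, Pmaip1 and Bbc3 from 48 h to 72 h and from 36 h to 72 h were the same under all alternatives.

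Whether replicate numbers pair the samples could not be settled. Deviations of same-numbered arrays from their group means correlated at 0.13 at 36 h, -0.22 at 48 h and -0.02, 0.00 and 0.17 at 72 h. Differently numbered arrays gave -0.13 at 36 h, 0.22 at 48 h and -0.12 to 0.13 at 72 h. With 2 arrays in a group the deviations mirror each other, so 36 h and 48 h cannot decide this. With the replicate number as a block the treatment calls stayed at 0, and the counts between times were 10, 16 and 20. The brightest Bcl2l1 probe set then gave -0.04 (adjusted p = 0.65) from 48 h to 72 h and -0.08 (adjusted p = 0.3) from 36 h to 72 h. Crossing the numbers at 48 h, a choice made after seeing the data, also gave 0 treatment calls.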
